A study of Mus musculus with 9 samples.

Results

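Whole skin of 2 transgenic mouse lines, LA and L60, was compared directly. The comparison holds 4 of the 9 Affymetrix arrays of the series, titled LA 1, LA 2, L60 1 and L60 2. The 3 control arrays (LC) show on which side of the controls a difference lies. They and the remaining 2 arrays, of the line L84, also enter the estimate of the spread and the scaling of the scores. Every array received 1 pool of total RNA from 30 mg of whole skin of mice 30 days old, of a mixed C57BL, DBA and FVB background, and mice within a pool shared a genotype. The series title names a constitutively active Akt, ectodermal defects and impaired BMP signalling. The labels call L60, L84 and LA transgenic and LC control, and give neither the promoter of the transgene, nor the way the lines differ, nor the number or sex of the mice in a pool. Which alleles of the 3 parental strains each line carries was not given either. With 2 pools a line, p-values rest on the spread between pools within all 4 groups, LC and L84 included.

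Akt is a kinase that passes on growth factor signals: it drives growth and protein synthesis and keeps the FOXO transcription factors out of the nucleus. BMP ligands bind surface receptors that phosphorylate Smad proteins, which switch on targets such as the Id and Msx genes, and in the hair follicle this signal is needed for matrix cells to become hair. The matrix at the base of a growing follicle divides fast and gives rise to the hair shaft, built of hair keratins and keratin-associated proteins, and to the inner root sheath around it. Follicles cycle between growth, regression and rest, and in young mice the first such cycles run in near synchrony over the back.

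The deposited values are scores, standardised for every probe set over the 9 arrays to mean 0 and SD 1. All differences below are LA minus L60 in these units, n = 2 arrays a line, with the standard error of a linear model fitted over all 9 arrays. They carry no level and no fold change, and for a single probe set the difference cannot pass 2.83. A gene was called at an adjusted p under 0.05 (limma without variance moderation, Benjamini-Hochberg over 12393 genes). Fewer cells of a type and less RNA per cell cannot be told apart in whole skin. The 18S ribosomal RNA control probe sets scored 2.09 on L60 1 against -0.642 on L60 2, -0.625 on LA 1 and -0.584 on LA 2. The control probe set at the 3' end of Gapdh scored -1.81, 0.247, 0.948 and 0.179 on the same arrays in that order. Scores were spread most widely on LA 2, with an SD over genes of 1.20 against 0.836 on LA 1, 0.781 on L60 1 and 0.710 on L60 2. Over all genes the L60 arrays correlated with each other at -0.0228 and the LA arrays at 0.229. The parts of 18S, Gapdh and the spread of the scores in the results below were not tested, and values without the array concerned are given where they differ by much.

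The genes that fell in LA skin against L60 skin included 9 of 52 cell cycle genes, 5 of 12 hair shaft keratins, 6 of 15 genes of the inner root sheath, medulla and cuticle, and 2 of 18 pigment cell genes. Of these 4 lists no member rose. Of 12393 genes, 78 were called (0.629%), with 57 lower in LA (0.46%) and 21 higher (0.169%). At an unadjusted p under 0.05 there were 2002 genes (16.2%), 1031 lower (8.32%) and 971 higher (7.84%). Both LA arrays lay above both L60 arrays for 3316 genes (26.8%) and below them for 2936 (23.7%), which makes 50.4% of genes without overlap, and the median difference of all genes was 0.164. These shares are the background against which every list below is read. The controls lay nearer to L60 than to LA for 75 of the 78 called genes. This held for 71.6% of all genes and for 81.5% of those whose LA and L60 arrays did not overlap. For 39 called genes the LC mean lay between the means of the lines, and for the other 39 the L60 mean lay between LC and LA. The LC arrays did not overlap the LA arrays for any called gene, against 48.8% of all genes, and for 54 of the 78 they overlapped neither line, against 15.3% of all genes. The LC arrays enter the spread that decides a call, so nothing is read from these counts.

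The number of calls depended on which arrays entered the fit: it was 13 without LC 1, 4 without LC 2, 11 without LC 3, 8 without L60 1, 5 without L60 2 and 15 without LA 2. Without an L60 or LA array the difference itself changes as well as its spread. Of the 78, those still called in these fits numbered 13, 4, 11, 6, 4 and 8 in that order. With moderated variance none was called (2311 genes at an unadjusted p under 0.05). On simulated scores that fit recovered 0% even of shifts of 20 residual SDs. Those scores were independent normal values without ties, unlike the data, so they do not settle how the count of 0 bears on the 78 calls. The 78 kept their sign in all 17 alternatives on genes. Leaving out an LC or L84 array or moderating the variance cannot change a difference, so nothing is read from the kept signs. Every call named below was lost in at least 4 of these alternatives.

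**Figure D1:**
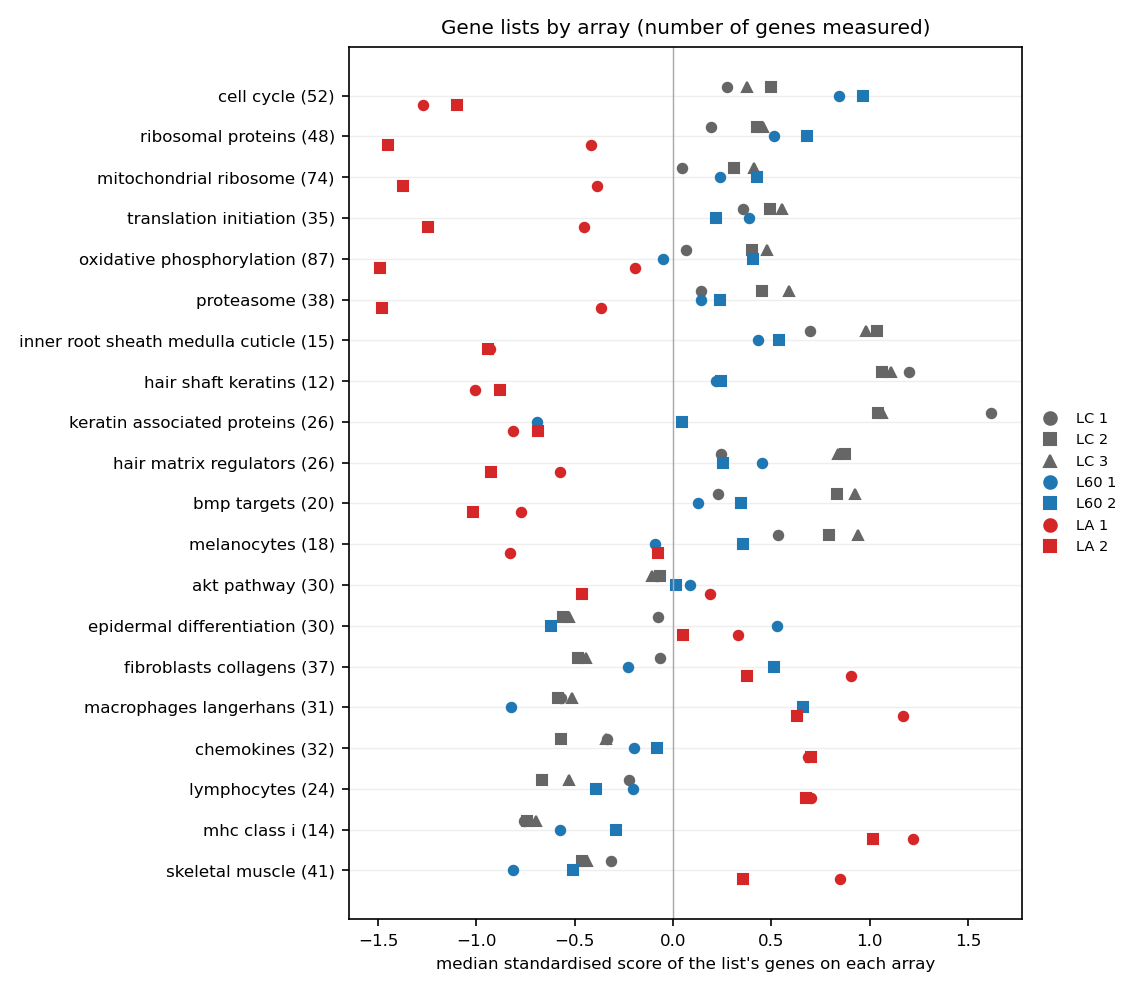
Median standardised score of the genes of 20 lists on each array (x axis, SD units over the 9 arrays), with the number of genes measured beside each list, grey for LC, blue for L60 and red for LA. The cell cycle list separates most, with medians of -1.27 and -1.10 on the LA arrays against 0.844 and 0.966 on the L60 arrays, while the macrophage list lies far apart on the L60 arrays themselves, at -0.824 and 0.661.

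Genes of DNA replication and mitosis were lower in LA than in L60, and this was the group with the lowest median of all lists. Of 52 cell cycle genes measured, 9 fell and 0 rose. Both LA arrays lay below both L60 arrays for 45 of 52 and above them for 1, and the median difference was -2.03. Without any 1 of the 4 arrays that median stayed between -2.19 and -2.03. The LC mean lay between the means of the lines for 47 of the 52 genes, below L60 and above LA, against 39.6% of all genes.

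Mcm6, a subunit of the helicase that opens DNA for replication, scored -1.56 on both LA arrays, 1.02 on both L60 arrays, and -0.0415, 0.646 and 0.413 on LC 1, LC 2 and LC 3. Its difference was -2.58 ± 0.272 (SE; adjusted p = 0.0413). The controls thus stood apart from both lines. The helicase subunits Mcm4, Mcm2 and Mcm7 fell too, with differences of -2.54, -2.47 and -2.38 (adjusted p = 0.0347, 0.0406 and 0.01265). All 4 probe sets of Mcm7 were lower in LA. Mcm5 and Mcm3 differed by -1.97 and -1.35 and were not called.

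Pola1, the catalytic subunit of the polymerase that starts new DNA strands, scored -1.27 and -1.01 in LA, 1.40 and 1.75 in L60, and -0.26, -0.127 and -0.468 in LC. It fell by 2.72 ± 0.19 (adjusted p = 0.0172), the largest drop of the list. Here the controls lay nearer to LA, which held for only 3 called genes in all, the others being Lsm3 and Rab34. Rfc4, a subunit of the clamp loader, fell by 2.44 (adjusted p = 0.0325). Pcna, the sliding clamp itself, scored -1.13 and -2.00 in LA against 0.634 and 1.37 in L60, a difference of -2.57 ± 0.409 that was not called (adjusted p = 0.0987).

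Mki67, the gene of the Ki-67 proliferation antigen, scored -1.45 and -1.68 in LA, 1.05 and 0.842 in L60, and 0.740, 0.519 and 0.454 in LC. It fell by 2.51 ± 0.213 (adjusted p = 0.0255). Cks2, a small partner of cyclin-dependent kinases, and Cenpa, the histone variant of centromeres, fell, with differences of -2.49 and -2.35 (adjusted p = 0.0248 and 0.0388). Cdk1, Ccnb2, Birc5 and Ube2c, all of mitosis, had non-overlapping arrays and differences of -2.47, -2.42, -2.41 and -2.28 without a call. Ttk, a kinase of the spindle checkpoint, lay at the other end of the list with 0.68 and was the only member whose LA arrays were both above the L60 arrays, by a narrow margin on LA 1 (-0.209 against -0.281 and -0.328). Ttk, Tyms, Foxm1 and Cdca3 were the 4 members with a difference above 0.

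**Figure D2:**
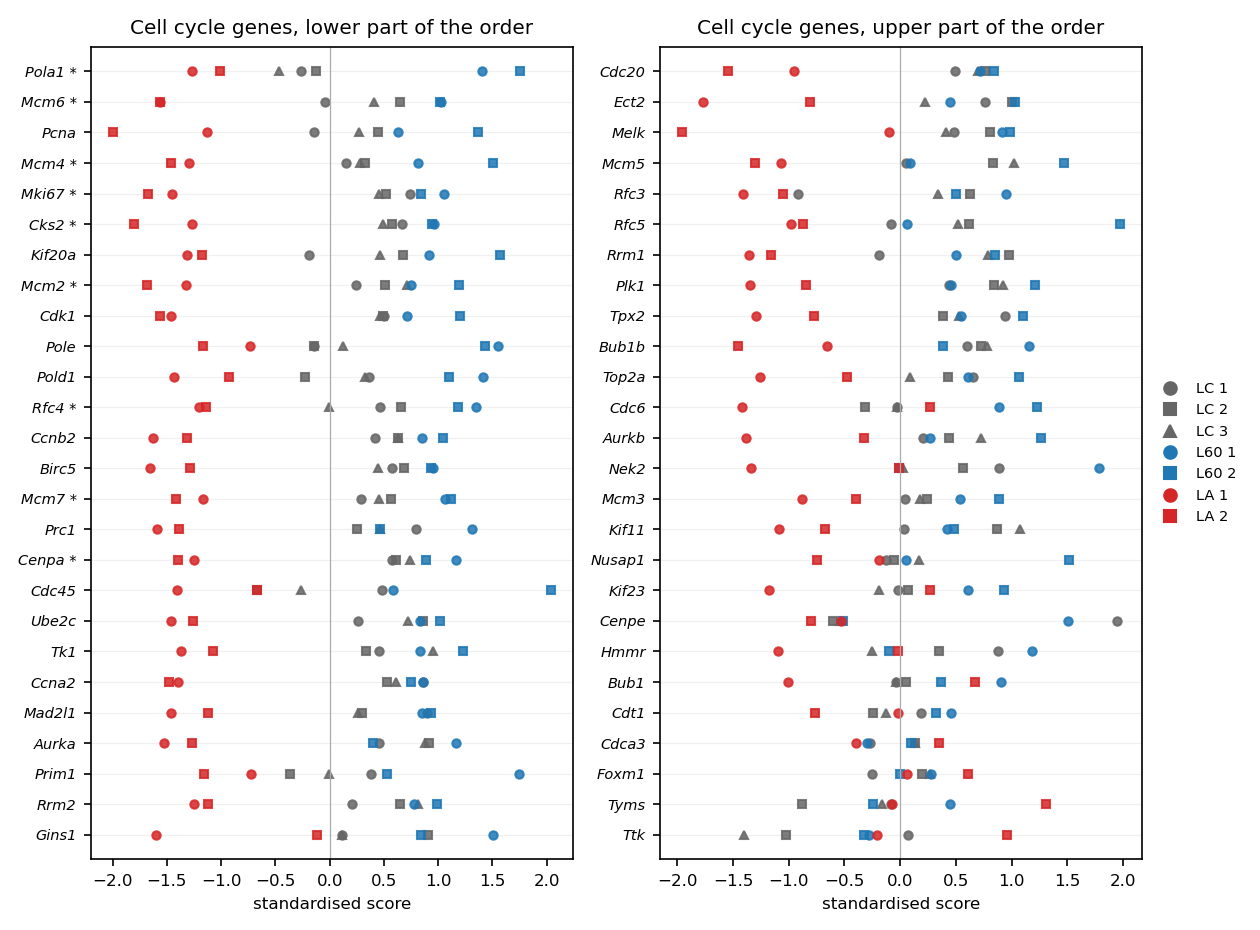
Standardised score of each of the 52 cell cycle genes (rows, ordered by difference, asterisk for a called gene) on each array of LC (grey), L60 (blue) and LA (red). For 45 genes both red points lie to the left of both blue points, and for 47 genes the mean of the grey points lies between the means of the lines, although all 3 grey points are clear of both lines for only 19.

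The promoters of Mcm6 and Pola1, the called members with the largest falls, are printed because Tfdp1, the DNA-binding partner of the E2F factors that switch on replication genes, was itself among the 15 largest falls. Tfdp1 scored -1.62 and -1.57 in LA, 1.29 and 0.942 in L60, and 0.252 to 0.362 in LC, and fell by 2.71 ± 0.178 (adjusted p = 0.0165). The words TTTCGCGC and TTTGGCGC, forms of the E2F motif, were searched on both strands in the 250 bases before each start site, and capitals mark their matches, which overlap in Mcm6. The sequences are from RefSeq, GRCm38.p6, minus strand, and end with the last base before the start site: 150 bases of Mcm6 at chr1:128359706-128359855 and of Pola1 at chrX:93632156-93632305.
Mcm6: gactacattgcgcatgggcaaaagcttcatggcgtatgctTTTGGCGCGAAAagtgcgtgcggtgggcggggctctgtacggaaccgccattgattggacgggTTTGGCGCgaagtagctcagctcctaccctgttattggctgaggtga
Pola1: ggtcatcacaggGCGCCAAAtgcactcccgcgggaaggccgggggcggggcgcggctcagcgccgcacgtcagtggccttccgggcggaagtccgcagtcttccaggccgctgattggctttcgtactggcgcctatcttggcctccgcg
One of these words stood before 5 of the 44 cell cycle genes with a promoter in the table, 4 of 47 genes called lower and 0 of 17 called higher, against 1.32% of the 9887 tested genes and 0.759% of all 27025 genes there. A match is a run of letters and says nothing on binding. Of the 78 called genes, 64 had a promoter entry.

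Rpa3, a subunit of the protein that coats single-stranded DNA, scored -1.62 and -1.41 in LA and 1.06 and 1.36 in L60 and fell by 2.72 ± 0.277 (adjusted p = 0.0406). Chtf8, which helps to load the sliding clamp, fell by 2.47 (adjusted p = 0.0413). The zinc finger gene Zfp275 fell by 2.40 (adjusted p = 0.0448). Named after their values were seen, Cks1b, Dnmt1, the maintenance DNA methyltransferase, Mis18a, which primes centromeres for Cenpa, and Syce2, Hmgb3 and Hmgn5 fell as well, with differences of -2.31, -2.32, -2.25, -2.09, -2.03 and -1.95. All of these had LA arrays below L60 arrays.

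Upf1, the helicase of nonsense-mediated decay, had the largest fall of all called genes. It scored -1.42 and -1.58 in LA, 1.27 and 1.28 in L60, and 0.280, 0.177 and 0.167 in LC. It fell by 2.77 ± 0.154 (adjusted p = 0.01265). The controls again lay between the lines and touched neither. Utp20, a component of the processome that cuts ribosomal RNA precursors, fell by 2.74 (adjusted p = 0.0335). Lsm3 and Lsm4, ring proteins of the U6 splicing particle, fell with differences of -2.72 and -2.40 (adjusted p = 0.0413 and 0.0325). Also called lower, and named after their values were seen, were Luc7l and Ddx39a of splicing and export, Wdr43 of ribosome making, Abce1 of ribosome recycling and Ran of nuclear transport, with differences of -1.98, -1.58, -2.10, -2.37 and -1.83.

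Genes of protein synthesis and breakdown and of mitochondria stood lower in LA as lists, with few calls. Of 48 ribosomal protein genes 0 were called, both LA arrays lay below both L60 arrays for 35 and above for 1, and the median difference was -1.56. They ranged from Rpl7l1 at -2.24 to Rps6 at 1.23. Of 74 genes of the mitochondrial ribosome, Mrps12 alone was called: it scored -1.54 and -1.89 in LA against 0.468 and 0.434 in L60 and fell by 2.17 ± 0.194 (adjusted p = 0.0308). The median of that list was -1.21, with 46 below and 2 above. Translation initiation factors (35 genes) had a median of -1.14, proteasome subunits (38 genes) of -1.13 and respiratory chain genes (87 genes) of -1.07, with no call in any of the 3 and with 23, 21 and 47 members whose arrays did not overlap and were lower in LA.

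These 5 lists did not stand equally low on both LA arrays. Ribosomal protein genes had a median score of -0.418 on LA 1 and -1.45 on LA 2, and respiratory chain genes -0.191 and -1.49. Without LA 2, whose scores were the widest, the median difference was -1.13 for ribosomal proteins, -0.705 for the mitochondrial ribosome, -0.763 for initiation factors, -0.573 for the proteasome and -0.382 for the respiratory chain. Without LA 1 the same medians lay between -2.01 and -1.61. The immunoproteasome subunits Psmb10, Psmb8 and Psmb9, which replace standard subunits in immune settings, were the only 3 proteasome genes with LA arrays above L60 arrays, with differences of 1.79, 1.49 and 1.45 that were not called. The muscle forms Cox6a2 and Cox8b headed the respiratory chain list, with differences of 1.84 and 1.495.

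Hair shaft keratins stood lower in LA than in L60, and their L60 means in turn lay below the controls. Of 12 hair shaft keratins, the filaments of the fibre, 5 fell (Krt35, Krt31, Krt33a, Krt86 and Krt34) and 0 rose. Both LA arrays lay below both L60 arrays for 11 of the 12, the median difference was -1.05, and every one of the 12 had its L60 mean between LC and LA. Among all genes 44.1% had that order. The median stayed between -1.20 and -0.978 without any 1 of the 4 arrays.

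Krt35, an acidic hair keratin of the matrix and cuticle, scored -1.15 and -1.04 in LA, 0.694 and 0.682 in L60, and 0.911, 0.986 and 0.910 in LC. It fell by 1.78 ± 0.0936 (adjusted p = 0.01265). Krt31 and Krt33a, acidic keratins of the cortex, fell with differences of -1.44 and -1.39 (adjusted p = 0.0165 and 0.0093). For Krt34 and Krt86 the L60 arrays stood lower, at 0.102 and 0.125 for Krt34 and 0.0305 and 0.209 for Krt86, so that differences of -0.991 and -1.06 were called on a narrow spread (adjusted p = 0.01265 and 0.033). Krt33b, with -1.36, just missed the call (adjusted p = 0.0581). Krt84 differed least, by -0.231, with 1 and the same score of -0.0391 on L60 2 and LA 2.

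Genes of the inner root sheath, medulla and cuticle were lower in LA as well, and here L60 lay nearer to the controls: the median of L60 minus LC was -0.353, against -1.04 for the hair shaft keratins. Of 15 measured, 6 fell (Krt27, Krt25, Krt71, Tchh, S100a3 and Padi3) and 0 rose, 12 had LA arrays below L60 arrays and 1 above, and the median difference was -1.30. Krt25, an inner root sheath keratin, scored -1.05 and -1.07 in LA, 0.811 and 0.716 in L60, and 0.855, 0.937 and 0.888 in LC. The LA arrays stood far below all others of this comparison, and Krt25 fell by 1.82 ± 0.0575 (adjusted p = 0.00364). It was the called gene that kept its call most often, in 13 of 17 alternatives.

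Krt27 and Krt71, also inner root sheath keratins, fell with differences of -1.84 and -1.79 (adjusted p = 0.0172 and 0.0255). Tchh, trichohyalin, the granule protein that Padi enzymes modify, scored -0.948 and -1.17 in LA against 0.754 and 0.606 in L60 and fell by 1.74 ± 0.0959 (adjusted p = 0.01265). Padi3, such an enzyme, fell by 1.64 (adjusted p = 0.0342). S100a3, a calcium-binding protein of the cuticle, scored -1.06 and -1.08 in LA, 0.691 and 0.555 in L60, and 0.971 to 0.983 in LC, and its fall of 1.70 ± 0.0456 had the lowest adjusted p of all genes (0.00329). Cidea, a lipid droplet protein and the top of the list, differed by 0.987 and was not called.

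**Figure D3:**
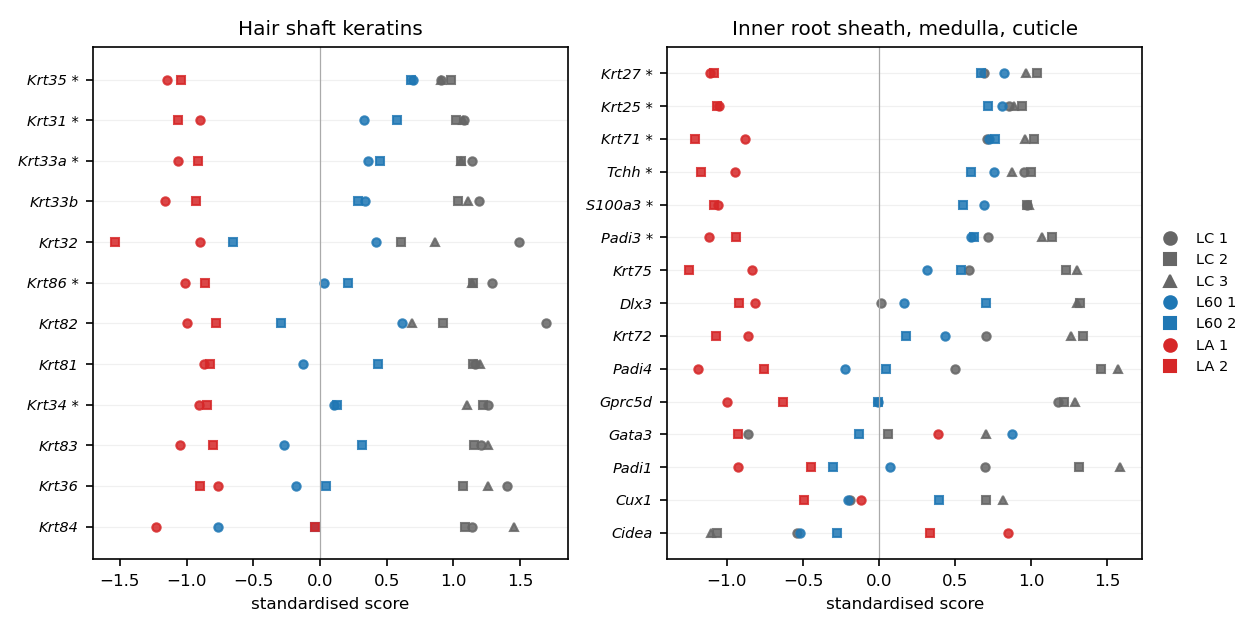
Standardised score of 12 hair shaft keratins (left) and 15 genes of the inner root sheath, medulla and cuticle (right) on each array, asterisk for a called gene. The mean of the blue points (L60) lies between those of the grey (LC) and red (LA) points for all 12 hair shaft keratins, and for the 6 called genes of the right panel the blue points lie nearer to grey than to red.

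Promoters of 4 of these keratins are printed, a pair of the shaft and a pair of the inner root sheath, as called members that hold a TATA word near the start site; not all members do. They are 60 bases each from RefSeq, GRCm38.p6, minus strand, ending with the last base before the start site, and capitals mark TATAAA: Krt31 at chr11:100050552-100050611, Krt34 at chr11:100041555-100041614, Krt25 at chr11:99322952-99323011 and Krt71 at chr15:101743098-101743157.
Krt31: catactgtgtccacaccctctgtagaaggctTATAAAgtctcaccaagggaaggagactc
Krt34: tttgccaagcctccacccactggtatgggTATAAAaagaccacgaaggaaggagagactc
Krt25: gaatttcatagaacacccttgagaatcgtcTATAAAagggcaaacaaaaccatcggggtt
Krt71: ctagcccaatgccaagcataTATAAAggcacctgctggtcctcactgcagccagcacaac
The word begins 29, 31, 30 and 40 bases before the start. Searched on both strands over 250 bases, TATAAA stood before 5 of 7 hair shaft keratins and 7 of 13 inner root sheath genes with an entry, against 1 of 44 cell cycle genes, 10.7% of the tested genes and 14.3% of all genes in the table. Of the 47 genes called lower 7 had it (14.9%), and of the 17 called higher 2 (11.8%).

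The keratin-associated proteins, which cross-link hair keratins, had a median difference nearer to 0 and no call. None of 26 was called (limma; unadjusted p under 0.05 for 7, all lower), 10 had LA arrays below and 2 above L60 arrays, and the median was -0.474. For 21 of 26 the L60 mean lay between LC and LA, and the list's median was 1.62, 1.04 and 1.06 in LC, -0.691 and 0.0445 in L60, and -0.813 and -0.688 in LA. L60 1 thus scored as low as the LA arrays and L60 2 between. The median difference was 0.00483 without L60 2 and -0.771 without L60 1. Krtap8-1 at -1.36 and Krtap13 at 1.57 marked the ends of the list.

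Regulators of the hair matrix stood lower in LA with 1 call. Hoxc13, the homeobox factor that switches on hair keratins, scored -1.21 and -1.05 in LA, 0.566 and 0.701 in L60, and 0.718, 1.07 and 1.08 in LC. It fell by 1.77 ± 0.187 (adjusted p = 0.0413). Of 26 members 14 had LA arrays below and 3 above L60 arrays, and the median was -1.06. Msx2, another homeobox factor of the matrix, differed by -1.78 ± 0.223 and missed the call (adjusted p = 0.064), as did Lef1, a transcription factor of Wnt signalling, at -1.63 and Dlx3 at -1.30. Vdr, the vitamin D receptor, was lowest at -2.20 and Hr, the gene named hairless, highest at 1.53. Foxn1, a factor needed for hair keratin expression, scored -0.673 and -0.331 in LA and -0.401 and -0.279 in L60, all below the controls (0.737 to 1.72), with a difference between the lines of -0.162 ± 0.336.

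Targets of BMP signalling held 2 falls. Of 20 measured, Bambi and Hoxc13 fell, 0 rose, and 10 had LA arrays below and 2 above L60 arrays, with a median of -0.826. Bambi, a decoy receptor that the pathway induces against itself, scored -1.13 and -1.09 in LA, 0.697 and 0.384 in L60, and 0.956, 1.13 and 0.958 in LC, and fell by 1.65 ± 0.118 (adjusted p = 0.0172). Id3, a direct target, scored -0.644 and -1.34 in LA against 0.927 and 1.39 in L60, a difference of -2.15 ± 0.333 that was not called (adjusted p = 0.0962). Id1 and Id4 differed by -1.88 and -1.84, and Id2 by 0.0238 with its 3 probe sets in disagreement (-0.898 to 1.86). Smad6, an inhibitory Smad, scored -0.998 and -1.07 in LA and -0.031 and -0.0134 in L60, below 0.901 to 1.59 in LC, with a difference between the lines of -1.01 (adjusted p = 0.147). Smad7, another, differed by -0.523. Dlx5 stood highest, at 2.08. Foxn1, Msx1, Dlx3, Lef1, Msx2, Gata3 and Hoxc13 belong to the hair matrix list as well.

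The upstream part of the pathway showed no call. Of 24 BMP ligands, receptors, Smads and antagonists 0 were called, 7 had LA arrays below and 5 above, and the median was -0.0743 (between -0.507 and 0.209 without any 1 of the 4 arrays). Bmp4 and Bmpr1a differed by -1.02 and -1.01, Bmp2 by -0.0237. Noggin (Nog), a secreted antagonist, scored 2.10 and 0.732 in LA against -0.483 and -0.276 in L60, the highest difference of the list at 1.79 ± 0.753 (adjusted p = 0.333). Smad1, a carrier of the BMP signal, was lowest at -1.51.

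The genes of Akt, the kinase that the title names, were not called. Akt1 scored 0.0648 and -1.61 in LA and -0.54 and 0.417 in L60, so that the arrays overlapped, and differed by -0.712 ± 0.651 (adjusted p = 0.601). Where its probe sets lie relative to the transgene is not known, so they check nothing on it. Akt2 scored 1.31 and 0.27 in LA and -0.527 and -0.597 in L60, a difference of 1.35 ± 0.678 (adjusted p = 0.394). Of 30 genes of the pathway 0 were called, 10 had LA arrays above and 8 below, and the median was -0.00075. That median was -0.329 without LA 1 and 0.362 without LA 2. Rictor, of the kinase complex that activates Akt, was highest at 1.95, and Pik3ca, a kinase subunit upstream of it, lowest at -1.47. Gsk3b and Igf1 differed by 0.272 and -0.147 with overlapping arrays.

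Among 22 FOXO targets, Klf2, a transcription factor of quiescent T cells and endothelium, rose. It scored 1.92 and 1.52 in LA, -0.263 on both L60 arrays and -0.661, -0.454 and -0.263 in LC, and rose by 1.98 ± 0.18 (adjusted p = 0.0319). The equal values on the L60 arrays narrow the spread of this test, and Klf2 was the only called gene tied within LA or L60. The list's ends were Tnfsf10 at 2.24 and Sesn3 at -2.03, neither called, and its median was 0.425 (0.213 without LA 1 and 0.671 without LA 2), with 9 members above and 4 below. Foxo1 and Foxo3 themselves differed by -0.837 and -0.916, and the probe sets of each disagreed in sign.

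Of 18 pigment cell genes 2 fell, both enzymes of the melanosome, and 0 rose. Dct scored -1.50 and -1.44 in LA, 0.468 and 0.821 in L60, and 0.707, 0.932 and 0.976 in LC, and fell by 2.11 ± 0.145 (adjusted p = 0.0172). Tyrp1 scored -1.02 and -1.13 in LA against 0.550 and 0.800 in L60, fell by 1.75 ± 0.135 (adjusted p = 0.0202), and all 3 of its probe sets were lower. Both act in melanin synthesis. Pmel, which forms the fibrils on which pigment is laid, differed by -1.56 (adjusted p = 0.108) and Tyr, the first enzyme, by -0.48. Mitf, Sox10 and Kit, which specify the cell, differed by 0.0851, 0.633 and 0.265, and Pax3 was highest of 18 at 1.40. The list's median of -0.569 became -0.177 without LA 1, -0.283 without L60 2 and -0.909 without LA 2.

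In the epidermis, Krt77, a keratin of the sweat duct and upper epidermis, rose. It scored 1.19 and 1.10 in LA, 0.115 and -0.156 in L60, and -1.34 to -1.13 in LC, and rose by 1.17 ± 0.128 (adjusted p = 0.0448), with L60 between LC and LA. Of 30 genes of epidermal differentiation 8 had LA arrays above and 5 below, with a median of 0.53 that was 1.02 without L60 1 and -0.0916 without L60 2. Lce1g was highest at 2.12 and Flg, filaggrin, lowest at -1.78. The basal keratins Krt5, Krt14 and Krt15 differed by 0.717, -1.07 and 0.961, and Krt1 and Krt10 of the layers above by 0.675 and 0.567, none called. For Krt5, Krt15, Krt1 and Krt10 both LA arrays were above both L60 arrays and all 4 arrays were above the 3 controls.

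Gjb2, connexin 26, a gap junction protein of hyperproliferative and follicular epithelium, scored -1.29 and -1.12 in LA, 0.649 and 0.849 in L60, and 0.775 to 1.01 in LC, and fell by 1.95 ± 0.112 (adjusted p = 0.01265). Sfrp1, a secreted Wnt inhibitor also used as a marker of bulge stem cells, scored -1.53 and -1.32 in LA, 0.304 and 0.671 in L60, and 0.242 to 0.425 in LC, and fell by 1.91 ± 0.183 (adjusted p = 0.0347), with all 4 probe sets lower. It was the only call among 42 Wnt pathway genes (median -0.219, and 0.158 without L60 1) and among 24 bulge markers (median 0.0906). Of 12 genes of the hedgehog pathway, which follicle growth requires, 0 were called, 7 had LA arrays below and 2 above, and the median was -0.854 (-0.485 without LA 2). Gli1, its target, was lowest at -2.51 (adjusted p = 0.153), and Shh scored 1.37 and -1.69 on the LA arrays.

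Genes of class I antigen presentation and of lymphocytes stood higher in LA as lists, whereas the median of macrophage and Langerhans cell genes depended on 1 array. These lists held 2 rises and 1 fall. H2-K1, a class I molecule, scored 1.24 and 1.41 in LA, -0.593 and -0.66 in L60, and -1.08, -0.78 and -0.757 in LC, and rose by 1.95 ± 0.133 (adjusted p = 0.0172), with all 4 probe sets higher. Of 14 genes of class I presentation 10 had LA arrays above and 0 below, and the median was 1.39. Psmb8, Psmb9 and Psmb10, given above with the proteasome, belong to this list too and are among the 10. B2m, the light chain of class I, scored 1.26 and 1.02 in LA against -0.508 and -0.36 in L60, a difference of 1.58 ± 0.182 that was just not called (adjusted p = 0.0501). H2-T24 differed least, by 0.0649. Class I genes share sequence, so their probe sets may not be specific to 1 gene.

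Cd207, langerin, the marker of Langerhans cells, scored 1.61 and 1.60 in LA, -0.379 and -0.476 in L60, and -0.777, -1.12 and -0.746 in LC. The LA arrays were nearly equal and far above the rest, and Cd207 rose by 2.04 ± 0.14 (adjusted p = 0.0172). The class II genes H2-Ab1, Cd74 and H2-Aa had non-overlapping arrays and differences of 2.10, 1.89 and 1.68 without a call (adjusted p = 0.113, 0.106 and 0.162). H2-Eb1, the partner chain of a second class II molecule, went the other way: it scored -1.40 and -1.88 in LA, 0.326 and 0.44 in L60, and 0.191, 0.178 and 0.117 in LC, and fell by 2.02 ± 0.191 (adjusted p = 0.0339). It was the only member of its list whose LA arrays lay below the L60 arrays.

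Over the 31 macrophage and Langerhans cell genes 13 had LA arrays above and 1 below, and the median was 0.871. That median rested on L60 1: its own list median was -0.824 against 0.661 on L60 2, and the difference was 0.0699 without L60 1 and 1.84 without L60 2. The complement genes C1qa, C1qb and C1qc and the receptor Cd163 scored higher on L60 2 than on both LA arrays. Lymphocyte markers depended less on a single array: of 24, 0 were called, 14 had LA arrays above and 1 below, and the median of 1.20 stayed between 1.06 and 1.35 without any 1 of the 4 arrays. Cd28, Cd2 and Cd4 differed by 2.04, 1.95 and 1.87, and Cd79b, of B cells, by -1.87. Of 32 chemokines 0 were called, 16 had LA arrays above and 2 below, and the median was 0.807. Ccl20, which attracts Langerhans cell precursors, was highest at 2.27 and Cxcl5 lowest at -1.76. Interferon-induced genes (29) had a median of 0.677, with 11 above, 1 below and 0 called (1.03 without L60 2).

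**Figure D4:**
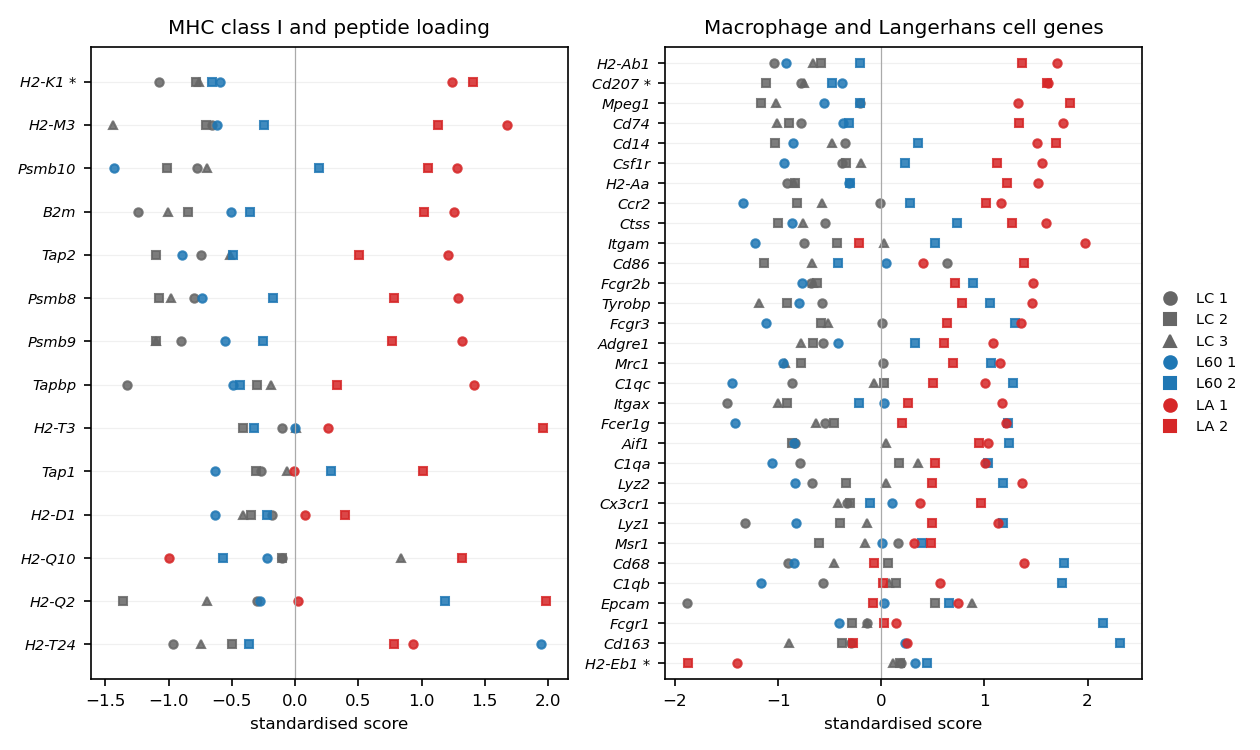
Standardised score of 14 genes of class I presentation (left) and 31 macrophage and Langerhans cell genes (right) on each array, asterisk for a called gene. Red points (LA) lie to the right of blue (L60) for 10 genes on the left, whereas on the right the blue squares of L60 2 lie among or beyond the red points for many genes and H2-Eb1 alone is reversed.

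Muscle genes, which in whole skin mark the thin muscle sheet beneath the dermis, stood higher in LA without a call for skeletal muscle. Of 41 skeletal muscle genes 0 were called (limma; unadjusted p under 0.05 for 16, all higher), 29 had LA arrays above and 2 below L60 arrays, and the median was 1.495, between 1.18 and 1.74 without any 1 of the 4 arrays. Ckm, muscle creatine kinase, scored 1.35 and 1.08 in LA, -1.51 and -0.511 in L60 and -0.746 to -0.42 in LC, with a difference of 2.22 ± 0.469 (adjusted p = 0.139). Its LC arrays overlapped those of L60 and lay below both LA arrays. Tnni1 and Tnnt1, troponins of slow fibres, had the lowest differences, -1.31 and -0.729, and were the only 2 members with LA arrays below L60 arrays. Myl3, Tnnc1, Myl2 and Myh7, also of slow fibres, differed by 0.407, 0.262, -0.271 and -0.412 with overlapping arrays. In smooth muscle, Mylk, the kinase that starts contraction, scored 1.54 and 1.63 in LA and -0.413 and -0.358 in L60 and rose by 1.97 ± 0.148 (adjusted p = 0.0192), while Tagln was lowest of 16 at -1.39 (median 0.411, 0.198 without LA 1 and 0.624 without LA 2). How much muscle each piece of skin held was not measured.

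Fibroblast and matrix genes (37) had a median of 0.573 and 0 calls, with 17 above and 4 below. Pdgfrb stood at 2.12 and Tnc at -1.82, and the median was 0.322 without L60 1 and 0.358 without LA 1. Medians were 0.173 for endothelium, 0.753 for Schwann cells and nerve (0.413 without LA 2), -0.339 for fat cells and 0.591 for sebaceous glands, with 0 calls. Mast cell genes had a median of 1.04 (0.412 without LA 2), and granulocyte genes 1.15, which was 0.161 without LA 2 and 2.18 without LA 1. Red blood cell genes had 0.346 (between 0.13 and 0.746 without 1 of the 4 arrays) and sex-linked genes 0.555 (between 0.244 and 1.63). Xist, the RNA of the inactive X chromosome, scored -0.9 and 1.48 in L60 and -0.822 and 0.077 in LA. The Y chromosome genes Eif2s3y, Kdm5d and Uty scored 1.08, 0.238 and 0.259 on L60 1 and -1.97, -1.52 and -0.735 on L60 2. On LA 1 they scored -0.157, 0.0924 and 0.511, and on LA 2 -0.188, 0.303 and 1.11. The sex-linked list mixes Xist with Y genes, so nothing is read from its median. The part of sex in the differences was not tested.

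Among the 15 largest rises only Cd207, Klf2, Mylk and H2-K1 belonged to a list. Slc37a1, a sugar phosphate transporter, scored 1.85 and 1.51 in LA, -0.92 and -0.885 in L60 and -0.152 on all 3 controls, and rose by 2.58 ± 0.11 (adjusted p = 0.00822); the tie among its controls narrows the spread of the test. Rxrg, a retinoid X receptor, was tied on the controls too, at -0.583, and rose by 2.16 (adjusted p = 0.0308). Pla2g2d, a secreted phospholipase, scored 1.56 and 1.59 in LA, -0.805 and -1.06 in L60, and rose by 2.51 ± 0.271 (adjusted p = 0.042). Casp4, an inflammatory caspase, scored 1.53 and 1.42 in LA against -0.67 and -0.957 in L60 and rose by 2.29 ± 0.244 (adjusted p = 0.0415).

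Ace, angiotensin-converting enzyme, and Napsa, an aspartic protease, rose by 2.26 and 2.24 (adjusted p = 0.0415 and 0.0191). Sag, known as the arrestin of photoreceptors, Clca3b, of a family of chloride channel regulators, and Gem, a small GTPase, rose by 2.36, 2.21 and 2.16. P2ry1, a receptor for nucleotides, rose by 2.26 and was called narrowly (adjusted p = 0.0453). Cyp4v3, a fatty acid hydroxylase, rose by 1.87. For all 21 rises the controls lay nearer to L60 than to LA, which held for 81.5% of all genes whose LA and L60 arrays did not overlap. As above, nothing is read from this count. The remaining called genes, named after their values were seen, were Tbx3, a T-box factor, Itm2b, Cyp2d22, Uba7 and Nt5c2 among the rises (1.86, 1.70, 1.53, 1.47 and 0.514), and D17H6S56E-5, Pigf, Rab34, Ahcy, Lap3, Sox4, Matn4, Odc1, Psors1c2 and Lpgat1 among the falls (-2.36 to -0.967). The probe sets of Nt5c2 and of Lpgat1 disagreed in sign, and the other 29 called genes with several probe sets had all of them on 1 side.

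**Figure D5:**
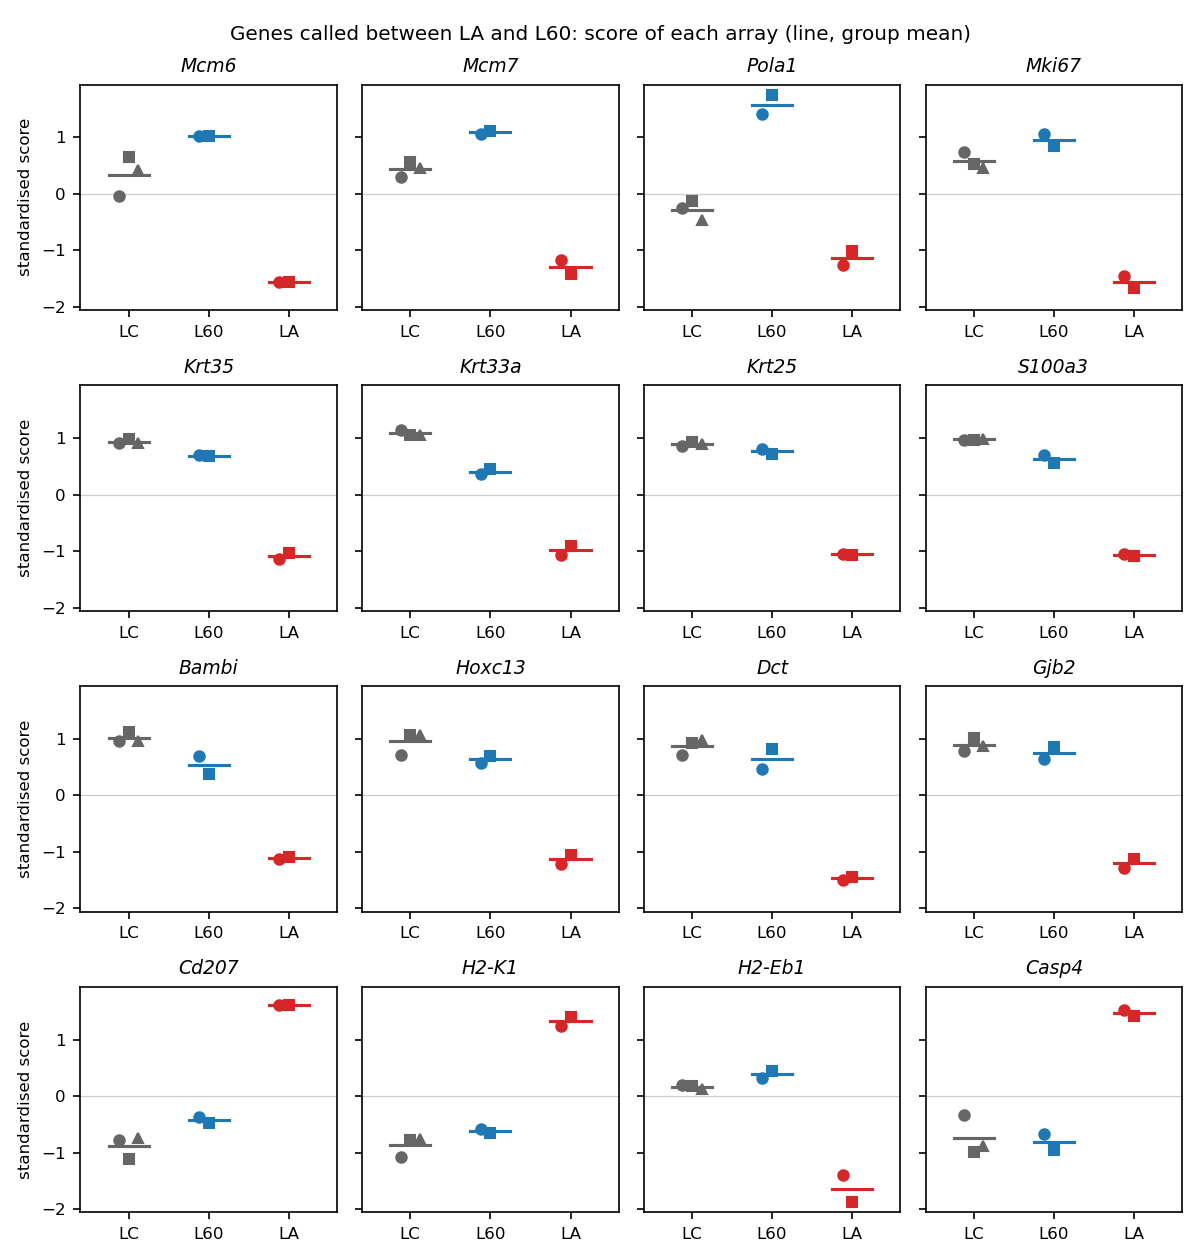
Standardised score on each array of LC (grey), L60 (blue) and LA (red) for 16 called genes, with a line at each group mean. The top row (replication and division) has LC between the lines, the middle rows (hair, BMP target, pigment and connexin genes) have L60 near LC or between LC and LA, and the bottom row shows Cd207, H2-K1 and Casp4 higher and H2-Eb1 lower in LA.

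The other lists held at most 1 call each. Medians were 0.335 for the Eda pathway, which shapes skin appendages (0.729 without LA 1 and 0.582 without L60 1), and -0.429 for Notch. They were 0.0913 for insulin-like growth factors, 0.264 for basal keratinocytes and 0.23 for stressed epidermis, whose call, Gjb2, fell. The dermal papilla had -0.103 and cholesterol synthesis -0.0644. Immediate early genes had 0.62 (0.119 without L60 2 and 1.02 without L60 1), and their call, Klf2, rose. Hox genes had 0.805, although their call, Hoxc13, fell. Connexins and desmosomes had 0.0877, although their call, Gjb2, fell. Amino acid stress had -0.35 and detoxification genes 0.683 (0.319 without L60 1). In the last, 24 of 55 had LA arrays above and 6 below, with Akr1c13 at 2.31 and Gclc at -1.87 as the ends. Of the 78 called genes 33 belonged to some list, against 1180 of all 12393 genes. The lists were chosen with earlier results of these data known, so nothing is read from these 2 counts. The medians of the Akt, Notch, insulin-like growth factor, basal, stressed epidermis and bulge lists changed sign without some 1 of the 4 arrays. So did those of the dermal papilla, cholesterol, fat cell, endothelium and connexin lists, and no direction is read from any of these.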

How the data were processed

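Total RNA of pooled whole skin was hybridised to 1-colour Affymetrix arrays. Per the submitters' processing notes the tool was RMA (version not given). The deposited values are scores that the authors had standardised per probe set to mean 0 and SD 1 over the 9 arrays, as the values themselves show, so signal over background, levels and fold changes cannot be recovered. Ties occur in 44.3% of probe sets. Scores run from -2.66 to 2.67. Of 22690 probe sets, 20380 name 1 gene in the platform annotation, 691 several and 1555 none, and 64 are controls. Scores of a gene's probe sets were averaged (4956 of 12393 genes have several). RefSeq records (GRCm38.p6) matched 20351 of the 20380 probe sets.

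A linear model with 4 group means was fitted over all 9 arrays (limma 3.58.1, R 4.3.3, 5 residual degrees of freedom), and LA minus L60 was tested without variance moderation, with Benjamini-Hochberg adjustment over 12393 genes. Named are the 15 largest rises and falls among called genes, without gene models and clone names, up to 4 called members and both ends of each list, and a fixed set of genes. The members and lists (47, with 1259 of 1380 memberships measured) were chosen with earlier results of these data known. Some genes belong to several lists, so the separate genes in a list number 1180. Lists are described by counts and medians beside all genes, with no test. Tested on simulated data of 12393 genes, the fit recovered 25.4%, 83.6% and 100% of shifts of 5, 10 and 20 residual SDs, with 3 false calls. With moderated variance it recovered 0% at each of these sizes. The simulated scores were independent normal values without ties or averaging of probe sets, and 67, 67 and 66 genes were shifted by these sizes. Alternatives left out each array, used only the 4 arrays, moderated the variance, added a replicate block or array weights, set array medians to 0, or took single probe sets. The number of arrays limits the precision.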

Additional observations from a re-analysis of the deposited data

Results flagged for a closer look

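The control probe sets for 18S ribosomal RNA, which enter no comparison, scored 2.09 on L60 replicate 1, above LC 1 (1.13) and the other controls. Its part in the difference between the lines was not tested. Without L60 1 the median difference of macrophage and Langerhans cell genes was 0.0699 in place of 0.871, and that of cell cycle genes -2.16 in place of -2.03.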

How the results depend on the processing

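The number of called genes, 78, was 3 with only the 4 arrays of LA and L60, 0 with moderated variance (2311 at an unadjusted p under 0.05, among them 71 of the 78), 1 with the replicate number as a block, and 42 with array weights. It ranged from 4 to 112 when single arrays were left out. In 2 settings chosen after seeing the data it was 23 without LA 2 and L84 1 (6 of the 78 among them) and 13 without LC 1, L60 1 and L84 1, the arrays high in 18S (0 of the 78). First probe sets gave 61, array medians set to 0 gave 80 and probe sets tested singly 55. Fewer arrays leave fewer residual degrees of freedom, and the rest of these shifts was not traced. Deviations of arrays of the same number correlated at -0.0833 (L60 and LA), 0.115 (L60 and L84) and 0.345 (L84 and LA), and with LC 1 at 0.16 (L60), 0.0478 (L84) and -0.0416 (LA). Since not every pair lay above 0.1, the numbers were not taken as pairs.

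Medians kept their sign in the lists named here, except keratin-associated proteins. LC and L84 arrays do not enter these medians, so leaving them out cannot move them. Without arrays high in 18S, of which only L60 1 counts here, they were -1.196 (hair shaft keratins), -1.572 (inner root sheath), -1.045 (BMP targets), -2.159 (cell cycle), 0.0699 (macrophages) and 1.349 (lymphocytes). Without LA 2 and L84 1, which here equals leaving out LA 2, they were -1.249 (inner root sheath), -1.175 (BMP targets), -2.193 (cell cycle), 1.708 (class I presentation) and -0.7051 (mitochondrial ribosome). First probe sets gave -2.225 (cell cycle) and 1.369 (lymphocytes), and array medians set to 0 gave -1.364 (inner root sheath). Leaving out single arrays gave -1.196 to -0.9782 for hair shaft keratins, -1.572 to -1.249 for the inner root sheath, -1.175 to -0.8264 for BMP targets, -2.193 to -2.032 for cell cycle, 1.062 to 1.349 for lymphocytes, 0.0699 to 1.84 for macrophages, 1.259 to 1.708 for class I presentation, -1.648 to -0.7051 for the mitochondrial ribosome and 1.179 to 1.735 for skeletal muscle. The bound of -0.8264 for BMP targets is the main value. Without any 1 of the LA and L60 arrays that list lay between -1.175 and -1.018. Keratin-associated proteins ran from -0.7706 to 0.00483 and so crossed 0. The cause of these moves was not tested.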

Other observations

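Of 597 genes tested on chromosome 17, 8 were called (1.34%, against 0.629% of all genes). Chromosome 8 had a higher share, with 10 of 646 (1.55%), and chromosomes 15 and X had 1.01% and 0.995%. Of the 8 calls on chromosome 17, 4 lie in the run from H2-K1 to Psors1c2 in RefSeq order, which holds 74 tested genes (5.41% called). H2-K1 was higher in LA, with a difference of 1.95, and H2-Eb1, D17H6S56E-5 and Psors1c2 were lower, with differences of -2.02, -2.36 and -1.24. The run was chosen after its values were seen, and its ends are themselves called genes, which raises its share. No test was made on it.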
